A study of Mus musculus with 24 samples.

Results

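Vwf, Thbd, Procr, F3, Plat, Plau, Plaur, Thbs1 and Tfpi are genes of blood clotting and of plasminogen activation. They were listed together and chosen by the level of Vwf, which had been seen in these data to be higher in treated than in Vehicle tumours at day 0. For that reason the day 0 comparisons with Vehicle are given as a description for all 9. The genes are 9 of 49315 genes in the count tables, and all 9 passed the filter on low counts that left 22280 genes for testing. RNA was sequenced from 24 brain tumours of mice that had been implanted with CT-vIII, a CT-2A glioma line transduced with mouse EGFR variant III and firefly luciferase. Beginning on day 6 after implantation each tumour was infused for 72 h by convection-enhanced delivery, which pushes fluid slowly into the tissue through a pump. The tumours were taken at the end of the infusion on day 9 (called day 0) or 3 days later (called day 3).

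The 8 groups held 3 tumours each: D2C7-IT + αCD40, D2C7-IT, αCD40 and Vehicle, at each of the 2 times. D2C7-IT (0.2 μg) is an immunotoxin, an antibody fragment that binds EGFR and its variant III joined to a bacterial toxin, and αCD40 is the stimulating antibody clone FGK4.5/FGK45 against CD40, given at 10 to 300 μg, with the amount per tumour not given. Vehicle tumours received 2% MSA-PBS with 100 μg of a rat IgG2a control antibody. By the labels, all 24 tumours carried the same line and had the same kind of pump. The labels tie no replicate numbers to shared litters or days, and nothing in them says how far the 3 tumours of a group were handled apart. The p-values measure only the spread between those tumours, which may in part be technical. The mice's strain and age are not given.

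As background, clotting begins when tissue factor (F3), a membrane protein of cells outside the bloodstream, meets circulating factor VII, and it ends with thrombin cutting fibrinogen to fibrin. Endothelial cells hold it back with TFPI, thrombomodulin (Thbd) and the endothelial protein C receptor (Procr), and they store von Willebrand factor (Vwf), the large protein that tethers platelets to an injured vessel wall, in Weibel-Palade bodies beside P-selectin. Fibrin is dissolved by plasmin, which the activators tPA (Plat) and uPA (Plau) release from plasminogen, uPA acting on cells through its receptor (Plaur). Tissue factor is abundant in astrocytes of the normal brain, and tPA is made by neurons and microglia as well as by vessels.

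The libraries held 24697576 to 48119840 counts. Levels are given as CPM, counts scaled to a common library size with TMM factors, and a gene is said to be called when its Benjamini-Hochberg adjusted p in edgeR's quasi-likelihood test over all 22280 genes is under 0.05. Lists of marker genes showed brain tissue in every library: the mean log2 CPM of 7 neuron genes was 7.17 to 9.66, and all 14 endothelial genes had counts in all 24 libraries. 3 libraries stood apart, tumours 2 and 3 of Vehicle at day 3 and tumour 1 of αCD40 at day 3. Their Egfr level was 283 to 343 CPM, against 13.1 to 50.8 CPM in the other 21, and their mean log2 CPM was 6.69 to 7.06 over 6 cell-cycle genes, against -0.08 to 3.79, and 6.53 to 6.83 over 6 fibroblast and meningeal genes, against 3.68 to 5.06. Vehicle at day 3 thus held 2 of these libraries and 1 of the others, and the fold changes of named genes at day 3 that involve Vehicle or αCD40 are given with and without them. Without them Vehicle at day 3 is a single tumour, assumed to vary like the other groups. These are whole-tissue samples, so fewer cells of a type and less RNA per cell cannot be told apart.

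**Figure D1:**
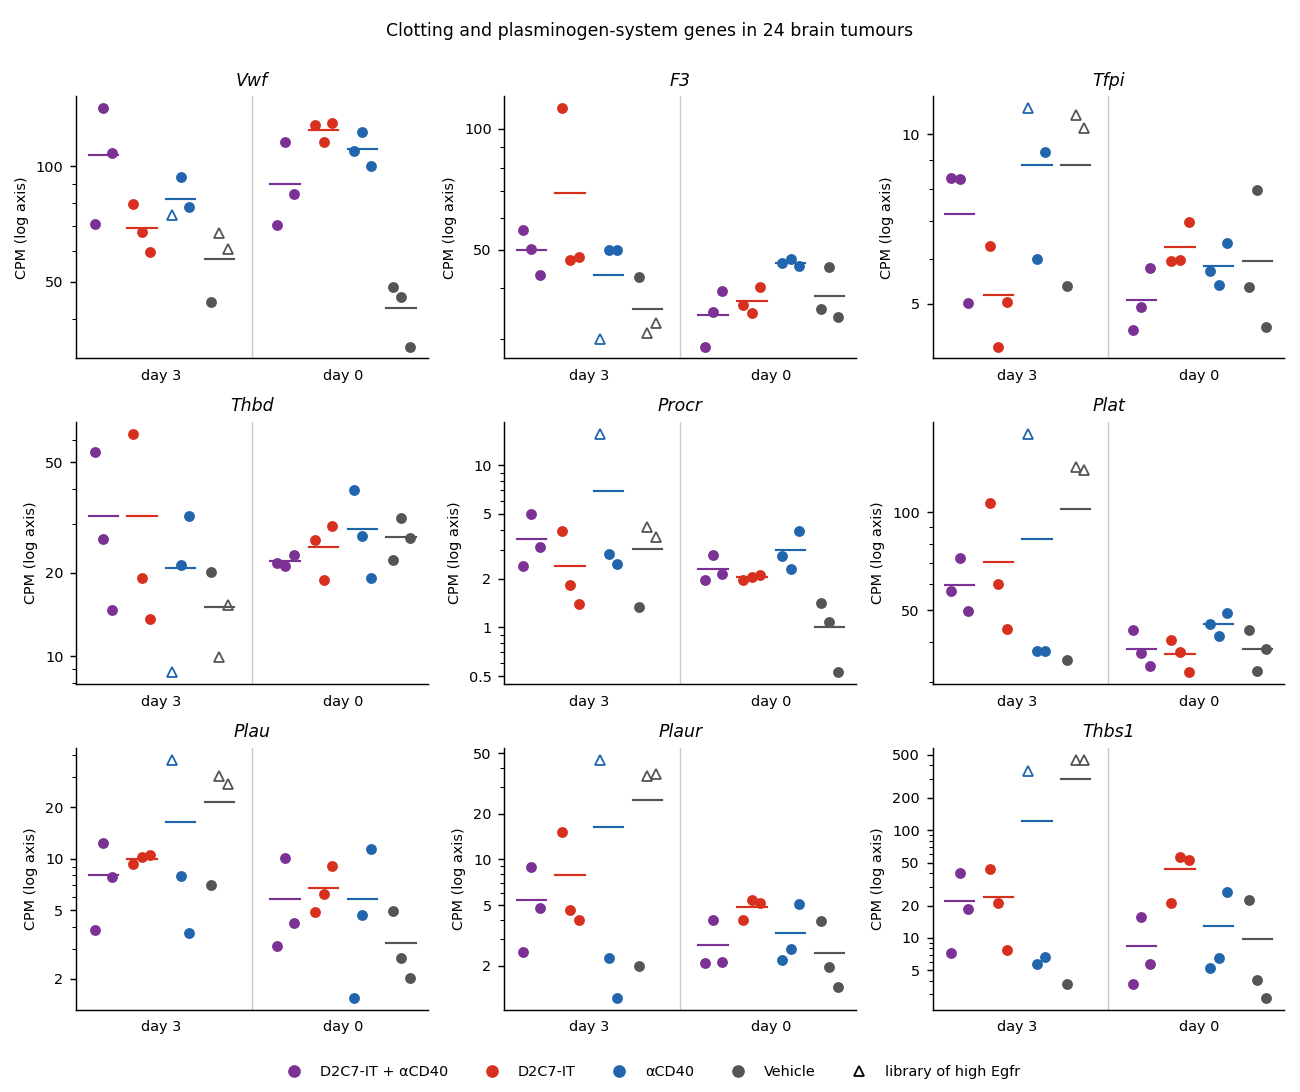
Level of each of the 9 genes in each tumour (CPM, log axis), day 3 on the left and day 0 on the right of each panel, with treated groups left of Vehicle; horizontal bars are means of 3 tumours and open triangles are the 3 libraries of high Egfr. At day 0 every treated tumour was above every Vehicle tumour for Vwf and Procr, and at day 3 the 3 open triangles were the highest points for Plat, Plau, Plaur and Thbs1.

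Vwf, on chromosome 6 (GRCm38, 125546774 to 125686679, plus strand, 56 merged exon blocks), was the member whose day 0 levels fixed the choice of genes, so those levels are given as a description without a test. At day 0 it was at 70.5, 115 and 84.6 CPM in the D2C7-IT + αCD40 tumours, at 128, 116 and 130 CPM in the D2C7-IT tumours and at 110, 123 and 100 CPM in the αCD40 tumours. Vehicle tumours had 48.4, 45.5 and 33.9 CPM. All 9 treated tumours lay above all 3 Vehicle tumours. The log2 fold change over Vehicle was 1.08 ± 0.23 (SE, n = 3 each) for D2C7-IT + αCD40, 1.55 ± 0.23 for D2C7-IT and 1.38 ± 0.23 for αCD40, and these 3 comparisons share the same Vehicle tumours.

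Since these comparisons chose the genes, no p-value or call is given for a member in them. Over all genes edgeR called 0.0808%, all higher, in D2C7-IT against Vehicle at day 0 and 0% in the other 2 comparisons, and nothing about the members is read from that. With any 1 of the 6 tumours of a comparison left out, the log2 fold change of Vwf was 1.40 to 1.65 in D2C7-IT. It was 0.86 to 1.23 in D2C7-IT + αCD40 and 1.24 to 1.48 in αCD40. These ranges describe the comparisons that chose the genes and test nothing.

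The choice of the genes rested on day 0, not on the day 3 tumours. At day 3 Vwf was at 70.7, 142 and 108 CPM in the D2C7-IT + αCD40 tumours, at 79.7, 67.5 and 60 CPM in the D2C7-IT tumours and at 74.5, 94 and 78.5 CPM in the αCD40 tumours. Vehicle tumours had 44.4, 67.1 and 60.8 CPM. Tumours of D2C7-IT + αCD40 and of αCD40 all lay above those of Vehicle, while D2C7-IT and Vehicle overlapped. The log2 fold change was 0.89 ± 0.23 for D2C7-IT + αCD40 (edgeR adjusted p = 0.11), 0.27 ± 0.23 for D2C7-IT (edgeR adjusted p = 0.45) and 0.52 ± 0.23 for αCD40 (edgeR adjusted p = 1.00), so none passed the threshold. DESeq2 called the D2C7-IT + αCD40 value (0.89, adjusted p = 0.014) in a comparison where it called 7.72% of all genes. EdgeR also called it without tumour 1 of Vehicle (0.74, adjusted p = 0.034), beside 30.1% of all genes, and without tumour 1 of D2C7-IT + αCD40 (1.12, adjusted p = 0.027), beside 0.532% of all genes. Over the alternatives with 1 tumour left out, it ranged from 0.64 to 1.12 with adjusted p from 0.027 to 0.41. Without the 3 libraries of high Egfr the log2 fold changes over the single Vehicle tumour were 1.30 for D2C7-IT + αCD40, 0.65 for D2C7-IT and 0.98 for αCD40 (edgeR adjusted p 0.71 to 1).

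Ordered by group mean, Vwf was highest in D2C7-IT at day 0, at 125 ± 7.7 CPM (SD, n = 3, as for all group means). Below it came 111 ± 12 CPM in αCD40 at day 0, 107 ± 35 CPM in D2C7-IT + αCD40 at day 3 and 90.1 ± 23 CPM in D2C7-IT + αCD40 at day 0. The lower groups were at 82.3 ± 10 CPM in αCD40 at day 3, 69.1 ± 10 CPM in D2C7-IT at day 3, 57.4 ± 12 CPM in Vehicle at day 3 and 42.6 ± 7.7 CPM in Vehicle at day 0. Every neighbouring pair of groups in that order had overlapping tumours. Set between days, Vwf was lower at day 3 than at day 0 in D2C7-IT (log2 fold change -0.85 ± 0.23) and in αCD40 (-0.43 ± 0.23), in both with no overlap, while D2C7-IT + αCD40 (0.24 ± 0.23) and Vehicle (0.43 ± 0.23) overlapped. The effect over Vehicle differed between day 3 and day 0 by -1.28 ± 0.32 for D2C7-IT, -0.86 ± 0.32 for αCD40 and -0.18 ± 0.32 for D2C7-IT + αCD40 on the log2 scale. With the 3 libraries of high Egfr left out, these differences were -0.90, -0.41 and 0.22, and the values between days were -0.36 in αCD40 and 0.048 in Vehicle. The between-day values rest on the day 0 tumours that chose the gene and are given without a test.

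Between the agents, neither edgeR nor DESeq2 called a member at either day, with Vwf at day 0 given without a test since those levels chose the genes. Vwf lay lower in D2C7-IT + αCD40 than in D2C7-IT at day 0 without overlap (log2 fold change -0.47 ± 0.23, a description). At day 3 the same pair overlapped, at 0.63 ± 0.23 (edgeR adjusted p = 1.00). EdgeR called 0% of all genes in 5 of the 6 comparisons between agents and 0.139% (0.0987% lower) in D2C7-IT against αCD40 at day 3. Leaving Vwf aside, it counted no member at an unadjusted p under 0.05 in any of the 3 comparisons at day 0. There it counted 0.884% to 3.03% of all genes. At day 3 it counted 1 member (Vwf) in D2C7-IT + αCD40 against D2C7-IT, where 2.44% of all genes were counted, and 0 members in D2C7-IT + αCD40 against αCD40, where 11.1% were. In D2C7-IT against αCD40 at day 3 it counted 3 of the 9 members (F3, Procr and Tfpi) and 17.7% of all genes. Those 3 values were 0.68 ± 0.27, -1.55 ± 0.61 and -0.76 ± 0.29 (edgeR adjusted p 0.21 to 0.22), and 0.46, -0.18 and -0.57 without the αCD40 library of high Egfr and the 2 Vehicle ones. Members without overlap between agents at day 0 were Vwf, Thbs1 and Tfpi, lower in D2C7-IT + αCD40 than in D2C7-IT, where 8.53% of all genes were lower without overlap. F3 was lower in D2C7-IT + αCD40 than in αCD40 (1.92% of all genes), and F3, Plat and Procr were lower in D2C7-IT than in αCD40 (4.97% of all genes).

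Vwf was read beside the level of endothelial genes, since endothelial cells are its main source along with megakaryocytes. The mean log2 CPM of 14 endothelial genes at day 0 was 4.87 in D2C7-IT + αCD40, 4.71 in D2C7-IT and 4.96 in αCD40, against 4.38 in Vehicle, and at day 3 it was 4.77 in D2C7-IT + αCD40, 4.43 in D2C7-IT and 4.62 in αCD40, against 4.42 in Vehicle. At day 0 the log2 fold change over Vehicle was positive in 14 of 14 of those genes for D2C7-IT + αCD40 (median 0.49, against 0.02 over all genes), in 12 for D2C7-IT (median 0.32, against -0.01) and in 14 for αCD40 (median 0.55, against 0.00). The Vwf level minus the endothelial mean, on the log2 scale, was 1.59 ± 0.29 in D2C7-IT + αCD40, 2.25 ± 0.04 in D2C7-IT and 1.83 ± 0.07 in αCD40 at day 0, against 1.01 ± 0.25 in Vehicle (SD, n = 3 each). At day 3 it was 1.91 ± 0.47 in D2C7-IT + αCD40, 1.67 ± 0.29 in D2C7-IT and 1.74 ± 0.18 in αCD40, against 1.40 ± 0.36 in Vehicle. The group mean was thus higher in each treated group than in Vehicle on both days, without overlap at day 0 and with overlap at day 3. The day 0 part holds the Vwf levels that chose the genes and is a description only. Apart from the libraries of high Egfr, the difference at day 3 was 1.84 and 1.53 in the other αCD40 tumours and 0.99 in the other Vehicle tumour.

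Platelets and megakaryocytes also carry Vwf. Of 8 platelet genes, Gp1bb lay between 6.4 and 25 CPM, Itga2b between 2.38 and 10.5 CPM and Pf4 between 0.26 and 4.35 CPM. The other 5 (Gp9, Tubb1, Treml1, Ppbp and Gp6) reached at most 0.781 CPM, and Ppbp and Gp6, which are specific to the lineage, were at 0 counts in 5 and 10 of 24 libraries. The mean log2 CPM of the 6 platelet genes tested was -0.75 to -0.08 in D2C7-IT + αCD40, 0.39 to 0.45 in D2C7-IT and -0.56 to -0.39 in αCD40 at day 0, against -0.59 to 0.08 in Vehicle, so that the D2C7-IT tumours, with the highest mean of Vwf, lay above the rest. The summed CPM of the 8 was 13.4 to 21.8 in D2C7-IT + αCD40, 21.8 to 28.1 in D2C7-IT and 16.1 to 24.9 in αCD40, against 19.5 to 31.8 in Vehicle.

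Neutrophil genes moved by mean with the day 0 levels of Vwf: the mean log2 CPM of 5 tested neutrophil genes was -0.17 in D2C7-IT + αCD40, 1.49 in D2C7-IT and 0.17 in αCD40, against -1.40 in Vehicle. Most of these genes were at low levels: of the 6 listed, Csf3r lay at 11.3 to 35.7 CPM and the others reached at most 2.94 CPM. The summed CPM of the 6 at day 0 was 16 to 29.9 in D2C7-IT + αCD40, 36.9 to 42.6 in D2C7-IT and 16.9 to 38.6 in αCD40. Vehicle, at 11.9 to 31.3, overlapped all but D2C7-IT in this sum, of which Csf3r was the largest part. By the mean log2 CPM of the 5 tested genes, no treated group overlapped Vehicle at day 0. That mean was -0.54 to 0.47 in D2C7-IT + αCD40 and -0.32 to 0.45 in αCD40, against -1.69 to -1.11 in Vehicle. All D2C7-IT tumours lay higher still. The 8 monocyte and macrophage genes put the 4 groups in the same order by mean as Vwf, with overlap between Vehicle and both αCD40 and D2C7-IT + αCD40, and had means of 3.49 in D2C7-IT + αCD40, 4.69 in D2C7-IT and 3.77 in αCD40, against 2.95 in Vehicle. The part of platelets, neutrophils and macrophages in the Vwf levels was not tested. Across the 24 libraries, which share treatment groups and depth, the correlation of log2 CPM with Vwf was 0.73 for the endothelial mean, 0.80 for the neutrophil mean, 0.29 for the monocyte and macrophage mean and 0.34 for the platelet mean. In the 21 libraries other than those of high Egfr these were 0.74, 0.80, 0.67 and 0.37.

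**Figure D2:**
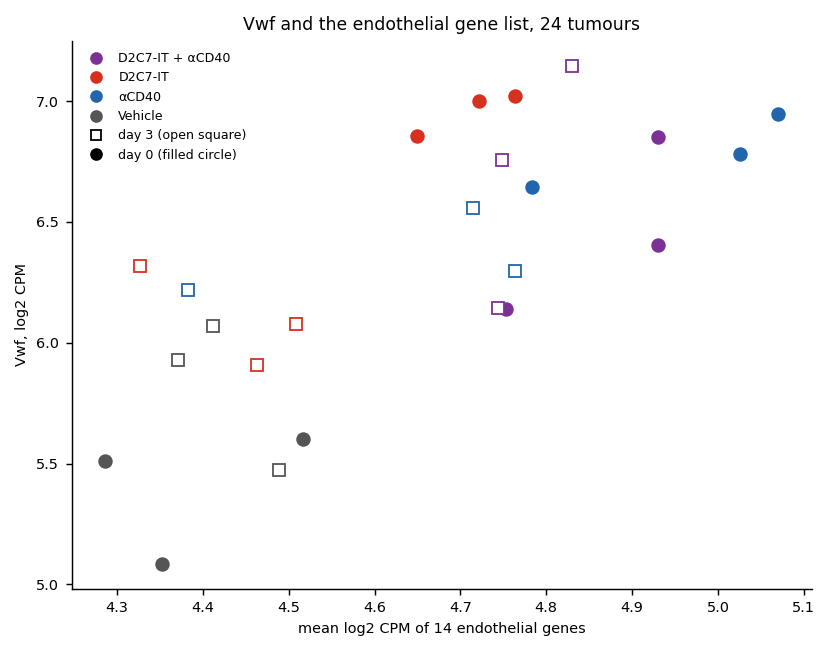
Level of Vwf (log2 CPM) against the mean log2 CPM of 14 endothelial genes in 24 tumours, coloured by treatment, with open squares for day 3 and filled circles for day 0. By group mean, D2C7-IT at day 0 sits highest above its endothelial level, by 2.25 ± 0.04, and Vehicle at day 0 lowest, by 1.01 ± 0.25, while single tumours of other groups reach past both (2.32 in a D2C7-IT + αCD40 tumour at day 3, 0.99 in a Vehicle tumour at day 3).

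The genes most like Vwf over the 24 libraries, out of 14496 compared, were Pecam1 (Pearson r = 0.88), an adhesion molecule of endothelial junctions, Selp (r = 0.86), which encodes P-selectin, the receptor for leukocytes held in the same granules, and Grrp1 (r = 0.81). In the 21 libraries without the 3 of high Egfr they were Selp (r = 0.91), B3gnt3 (r = 0.90) and Tgm2 (r = 0.90). Selp at day 0 was at 2.03 to 7.05 CPM in D2C7-IT + αCD40, at 17.9, 16.2 and 8.44 CPM in D2C7-IT and at 2.14, 1.98 and 1.47 CPM in αCD40. Vehicle tumours had 0.402, 0.19 and 0 CPM. Every treated tumour was above every Vehicle tumour, with log2 fold changes of 4.12 ± 1.10 for D2C7-IT + αCD40 and 6.04 ± 1.18 for D2C7-IT, a description of the same day 0 contrasts. At day 3 Selp in D2C7-IT was at 0.876, 0.336 and 0.322 CPM, a log2 fold change of -4.79 ± 1.10 against day 0 without overlap (edgeR adjusted p = 0.76), which DESeq2 called while calling 0.121% of all genes. Selp was taken here for its likeness to Vwf, whose day 0 levels chose the genes. Nothing is therefore read from that call, and the change is a description. Angpt2, an endothelial growth factor of the same granules, was at 3.48, 4.49 and 4.44 CPM in D2C7-IT at day 0, against 1.73, 1.46 and 1.28 CPM in Vehicle, without overlap (log2 fold change 1.47 ± 0.38).

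At day 3 no member was called against Vehicle in any of the 3 treated groups. EdgeR called 0.0404% of all genes in D2C7-IT + αCD40, 0% in D2C7-IT and 0% in αCD40. At an unadjusted p under 0.05 it counted 2 members (Vwf and Thbs1) and 5352 of all 22280 genes for D2C7-IT + αCD40, 3 members (F3, Thbs1 and Tfpi) and 6287 genes (28.2%) for D2C7-IT, and 1 member (Vwf) and 425 genes (1.91%) for αCD40. DESeq2 called 1 member (Vwf) beside 7.72% of all genes for D2C7-IT + αCD40, 1 member (F3) beside 12.9% for D2C7-IT and 0 members beside 0.153% for αCD40. The median log2 fold change of the 9 members was -0.29 for D2C7-IT + αCD40, -0.55 for D2C7-IT and -0.00 for αCD40, where all genes had medians of 0.01, 0.02 and 0.02. Without the 3 libraries of high Egfr the members' medians were 0.79, 0.71 and 0.44, where all genes had 0.06, 0.06 and 0.03. These medians all rest on the same single Vehicle tumour. Among the Vehicle tumours at day 3 it was the lowest for Vwf, Procr, Tfpi, Plat, Plau, Plaur and Thbs1 and the highest for F3 and Thbd. Members without overlap between the groups, all higher than Vehicle, numbered 2 for D2C7-IT + αCD40 (Vwf and F3), where 15.5% of all genes had none (8.06% higher). They numbered 1 for D2C7-IT (F3), where 13.2% had none (7.43% higher), and 1 for αCD40 (Vwf), where 2.71% had none (1.58% higher).

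F3, the initiator of clotting (chromosome 3, 121723537 to 121735048, plus strand), was at 56, 50.2 and 43.3 CPM at day 3 in D2C7-IT + αCD40, at 112, 47.1 and 47.9 CPM in D2C7-IT and at 29.9, 50 and 49.8 CPM in αCD40. Vehicle tumours had 42.7, 31 and 32.9 CPM. All tumours of the first 2 groups lay above Vehicle, and αCD40 overlapped it. The log2 fold change was 0.49 ± 0.27 for D2C7-IT + αCD40 (edgeR adjusted p = 0.27), 0.96 ± 0.27 for D2C7-IT (edgeR adjusted p = 0.08) and 0.28 ± 0.27 for αCD40 (edgeR adjusted p = 1.00). DESeq2 called the D2C7-IT value (0.96, adjusted p = 0.016). Tumour 1 of D2C7-IT carried much of it: without that tumour the log2 fold change was 0.42 (edgeR adjusted p = 0.26), and it was called without tumour 1 of Vehicle (1.12, edgeR adjusted p = 0.014), beside 35.7% of all genes, and without tumour 3 of D2C7-IT (1.17, edgeR adjusted p = 0.043), beside 1.88%. The 3 libraries of high Egfr were among the lower ones for F3, at 29.9 to 32.9 CPM, against 28.7 to 112 CPM in the other 21, and without them the values were 0.25 for D2C7-IT + αCD40, 0.71 for D2C7-IT and 0.25 for αCD40.

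At day 0 F3 was at 28.7, 34.9 and 39.3 CPM in D2C7-IT + αCD40, 36.4, 34.8 and 40.3 CPM in D2C7-IT and 46.3, 47.3 and 45.5 CPM in αCD40. Vehicle tumours had 35.6, 45.2 and 34 CPM. The first 2 groups overlapped Vehicle, and the 3 αCD40 tumours, close to each other, were just above its highest. Between days, F3 was higher at day 3 without overlap in D2C7-IT (log2 fold change 0.90 ± 0.27) and in D2C7-IT + αCD40 (0.54 ± 0.27), both with an edgeR adjusted p of 1.00. The effect of D2C7-IT over Vehicle was 1.00 ± 0.38 larger at day 3 than at day 0 (edgeR adjusted p = 0.28). Tumour 1 of D2C7-IT at day 3 also decided both values, which were 0.36 between days and 0.47 for the difference in effect without it. The difference in effect was 0.75 without the 3 libraries of high Egfr.

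Of the 3 inhibitors of clotting, Thbd, Procr and Tfpi, none was called at day 3. Their log2 CPM correlated with the endothelial mean at 0.24, 0.10 and -0.25 over 24 libraries. Over the 21 without those of high Egfr it was -0.03, 0.55 and 0.08. With the fibroblast and meningeal mean the values were -0.35, 0.60 and 0.84 over 24, and 0.57, 0.33 and 0.69 over 21. Which cells made them was not tested. Thbd, a receptor that turns thrombin toward activating protein C (chromosome 2, 148404466 to 148408188, minus strand, 1 exon), was at 54.5, 26.4 and 14.7 CPM at day 3 in D2C7-IT + αCD40, at 63.2, 19.2 and 13.6 CPM in D2C7-IT and at 8.75, 21.4 and 32.1 CPM in αCD40. Vehicle tumours had 20.1, 9.92 and 15.3 CPM. All groups overlapped, and 1 tumour set each of the 2 highest means. The log2 fold change was 1.08 ± 0.54 for D2C7-IT + αCD40 (edgeR adjusted p = 0.23) and 1.08 ± 0.54 for D2C7-IT (edgeR adjusted p = 0.19). Leaving out tumour 1 of the treated group brought these to 0.45 and 0.12, and leaving out the 3 libraries of high Egfr to 0.69 and 0.68. At day 0 its group mean was 22.0 ± 1.0 CPM in D2C7-IT + αCD40, 24.8 ± 5.4 CPM in D2C7-IT and 28.7 ± 10 CPM in αCD40, against 26.8 ± 4.7 CPM in Vehicle. Vehicle tumours alone lay lower at day 3 than at day 0 without overlap (log2 fold change -0.83 ± 0.54, edgeR adjusted p = 0.28, and -0.43 without the 2 Vehicle libraries of high Egfr).

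Procr, which presents protein C to thrombomodulin (chromosome 2, 155751117 to 155755471, plus strand), was expressed at a low level. At day 0 it was at 1.95, 2.78 and 2.14 CPM in D2C7-IT + αCD40, at 1.97, 2.04 and 2.09 CPM in D2C7-IT and at 2.75, 2.3 and 3.95 CPM in αCD40. Vehicle tumours had 1.42, 1.08 and 0.529 CPM. As for Vwf, all 9 treated tumours were above all 3 Vehicle tumours, a description of the contrasts that chose the genes. The log2 fold changes were 1.16 ± 0.61 for D2C7-IT + αCD40, 0.99 ± 0.61 for D2C7-IT and 1.55 ± 0.62 for αCD40. Members without overlap at day 0 numbered 2 in D2C7-IT + αCD40 (Vwf and Procr), where 9.47% of all genes had none, 3 in D2C7-IT (Plaur as well), where 17.6% had none, and 3 in αCD40 (F3 as well), where 7.47% had none. At day 3 Procr was at 2.39, 4.98 and 3.12 CPM in D2C7-IT + αCD40, at 3.92, 1.82 and 1.39 CPM in D2C7-IT and at 15.6, 2.84 and 2.48 CPM in αCD40. Vehicle tumours had 1.33, 4.13 and 3.62 CPM. The value of 15.6 CPM belonged to a library of high Egfr, and without that tumour the αCD40 log2 fold change of 1.2 ± 0.60 became -0.18 (edgeR adjusted p = 1.00 with it and 0.82 without it). Without all 3 libraries of high Egfr it was 1.02, over a single Vehicle tumour of 1.33 CPM.

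Tfpi, the inhibitor of tissue factor bound to factor VII (chromosome 2, 84432855 to 84476775, minus strand), lay between 4.2 and 11.1 CPM in all 24 tumours. At day 3 it was at 8.35, 8.31 and 5.02 CPM in D2C7-IT + αCD40, at 6.32, 4.2 and 5.04 CPM in D2C7-IT and at 11.1, 6.01 and 9.3 CPM in αCD40. Vehicle tumours had 5.37, 10.8 and 10.3 CPM. The 3 libraries of high Egfr held its 3 highest values, and the groups overlapped. D2C7-IT had a log2 fold change of -0.76 ± 0.29 over Vehicle (edgeR adjusted p = 0.11), which was -0.04 without those libraries and was called without tumour 1 of Vehicle (-1.02, edgeR adjusted p = 0.014), in the same fit that called 35.7% of all genes. At day 0 all its group means were between 5.08 and 6.31 CPM.

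The plasminogen activators, the uPA receptor and Thbs1 were highest in the 3 libraries of high Egfr, which came from 2 groups. Thbs1 encodes thrombospondin-1, a matrix protein of platelets, macrophages and tumour cells that restrains the growth of new vessels (chromosome 2, 118111876 to 118127133, plus strand, with 208 exon bases shared with Gm29233 on the other strand, in counts from a kit that does not mark strand). At day 3 it was at 7.33, 40.2 and 18.5 CPM in D2C7-IT + αCD40, at 43.8, 21.1 and 7.7 CPM in D2C7-IT and at 351, 5.72 and 6.59 CPM in αCD40. Vehicle tumours had 3.74, 451 and 449 CPM. The 3 values of 351 to 451 CPM were the libraries of high Egfr, and the highest of the other 21 was 56.8 CPM. The log2 fold change over Vehicle was -3.77 ± 1.54 for D2C7-IT + αCD40 (edgeR adjusted p = 0.15) and -3.64 ± 1.53 for D2C7-IT (edgeR adjusted p = 0.13). Without the 3 libraries both were positive, at 2.59 and 2.70, over a single Vehicle tumour. Leaving out the remaining Vehicle tumour instead, so that both libraries of that group had high Egfr, edgeR called Thbs1 in both comparisons, beside 30.1% and 35.7% of all genes. Leaving out tumour 1 of αCD40, it called Thbs1 and Plaur in αCD40 against Vehicle, beside 5.98% of all genes, where the values from all tumours were -1.31 ± 1.40 and -0.60 ± 1.03, and 0.74 and -0.17 without the 3 libraries.

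Plaur, the uPA receptor (chromosome 7, 24462484 to 24475968, plus strand), followed the same libraries. It was at 2.46, 8.95 and 4.79 CPM in D2C7-IT + αCD40, at 15.1, 4.64 and 3.99 CPM in D2C7-IT and at 45.4, 2.25 and 1.22 CPM in αCD40 at day 3. Vehicle tumours had 1.98, 35.3 and 36.6 CPM. Its log2 fold changes over Vehicle were -2.19 ± 1.07 for D2C7-IT + αCD40 (edgeR adjusted p = 0.22) and -1.64 ± 1.05 for D2C7-IT (edgeR adjusted p = 0.31), and 1.48 and 2.01 without the 3 libraries.

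Plau, uPA itself (chromosome 14, 20836660 to 20843385, plus strand), was at 3.85, 12.3 and 7.88 CPM in D2C7-IT + αCD40, at 9.31, 10.3 and 10.5 CPM in D2C7-IT and at 37.8, 7.91 and 3.67 CPM in αCD40. Vehicle tumours had 7.08, 30.4 and 27.2 CPM at day 3. The log2 fold changes over Vehicle were -1.43 ± 0.78 and -1.10 ± 0.78 for D2C7-IT + αCD40 and D2C7-IT, and 0.21 and 0.52 without the 3 libraries. Plat, tPA (chromosome 8, 22757727 to 22782844, plus strand), was at 57.2, 72.1 and 49.9 CPM in D2C7-IT + αCD40, at 107, 60.2 and 43.9 CPM in D2C7-IT and at 174, 37.5 and 37.4 CPM in αCD40. Vehicle tumours had 35.2, 138 and 135 CPM. Its 2 log2 fold changes, -0.78 ± 0.51 and -0.55 ± 0.51, became 0.79 and 1.01 without the 3 libraries. In these 4 genes the other Vehicle tumour was near the low end of the day 3 values, and the sign of the comparison with Vehicle turned on which Vehicle tumours were used.

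**Figure D3:**
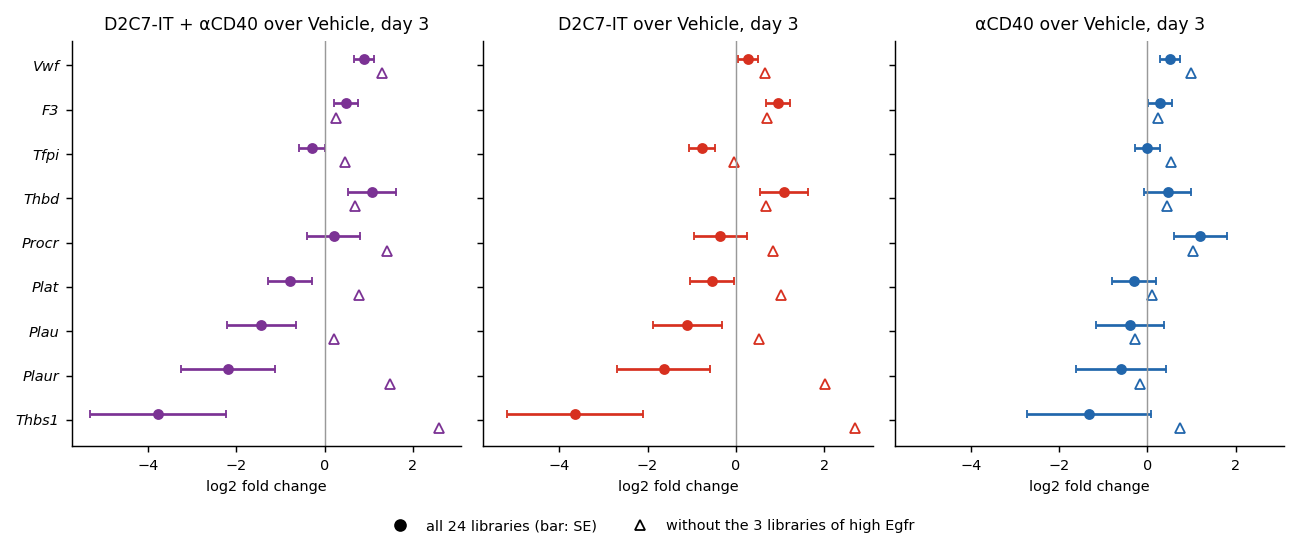
Log2 fold change over Vehicle at day 3 for the 9 genes, from all 24 libraries (filled circles, bars are SE) and without the 3 libraries of high Egfr (open triangles, a single Vehicle tumour), in panels for D2C7-IT + αCD40, D2C7-IT and αCD40. Thbs1, Plaur, Plau and Plat change sign between the 2 settings in the first 2 panels, Thbs1 between -3.77 and 2.59 in the first, while Vwf and F3 stay above 0.

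At day 0 the same 4 genes spanned narrower ranges. No day 0 library had Egfr near that of the 3 libraries, but Egfr was at 27.4 to 50.8 CPM, with a cell-cycle mean of 2.85 to 3.79, in the 3 D2C7-IT tumours, tumour 3 of αCD40 and tumour 1 of Vehicle, against 14.8 to 23.7 CPM and -0.08 to 2.37 in the other 7. Thbs1 was at 3.77, 15.5 and 5.73 CPM in D2C7-IT + αCD40, at 21.2, 56.8 and 53.1 CPM in D2C7-IT and at 5.31, 6.58 and 26.6 CPM in αCD40. Vehicle tumours had 22.3, 4.1 and 2.78 CPM. The 5 highest values belonged to the 5 libraries just named for Egfr, 2 D2C7-IT tumours first and then tumour 3 of αCD40, tumour 1 of Vehicle and the remaining D2C7-IT tumour. The part of Egfr and cell-cycle levels in them was not tested. The log2 fold change of D2C7-IT over Vehicle was 2.16 ± 1.45 with overlap, given as a description. D2C7-IT + αCD40 lay below D2C7-IT without overlap (log2 fold change -2.39 ± 1.46, edgeR adjusted p = 1.00). Plaur in D2C7-IT, at 3.97, 5.42 and 5.19 CPM against 3.9, 1.95 and 1.45 CPM in Vehicle, cleared the highest Vehicle tumour narrowly (log2 fold change 0.99 ± 1.05), and Plau overlapped (1.06 ± 0.78). Plat was between 32.2 and 48.9 CPM in all 12 day 0 tumours.

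Between days, the Vehicle tumours had log2 fold changes at day 3 over day 0 of 4.95 ± 1.64 for Thbs1, 3.33 ± 1.13 for Plaur, 2.74 ± 0.82 for Plau, 1.43 ± 0.51 for Plat and 1.57 ± 0.62 for Procr (edgeR adjusted p 0.11 to 0.12). EdgeR called none of the 8 members other than Vwf there, where it called 0% of all genes, and it counted 5 of them, with 30.2% of all genes, at an unadjusted p under 0.05. DESeq2 called 2, Plau and Plaur, beside 10.2% of all genes. Without tumour 1 of Vehicle at day 3, which left only libraries of high Egfr at that time, edgeR called 6 of the 8 members, all but Thbd and F3, and 41.1% of all genes. With the 3 libraries left out, the values were -1.40 for Thbs1, -0.32 for Plaur, -0.12 for Plat, 1.11 for Plau and 0.36 for Procr. In D2C7-IT + αCD40, D2C7-IT and αCD40 between days, edgeR called none of the 8, where 0%, 0.00449% and 0.0583% of all genes were called (0.0359% higher and 0.0224% lower in αCD40). At an unadjusted p under 0.05 it counted 0 members in D2C7-IT + αCD40, 1 (F3) in D2C7-IT and 2 (Plaur and Thbs1) in αCD40, where 4.66%, 3.51% and 11.6% of all genes were counted, and DESeq2 called 0 members in each. In αCD40 without the 3 libraries edgeR counted 0 members and 3.96% of all genes at an unadjusted p under 0.05. Plat lay higher at day 3 without overlap in D2C7-IT + αCD40 (0.65 ± 0.51) and D2C7-IT (0.94 ± 0.51), both with an edgeR adjusted p of 1.00. With F3, and in D2C7-IT with Plau, it made 2 and 3 members higher without overlap, where 7.07% and 4.96% of all genes were. In Vehicle Plau was the only one (6.49% of all genes), and Thbd was lower (6.65%). The effect of D2C7-IT over Vehicle on Thbs1 was -5.80 ± 2.11 at day 3 minus day 0 on the log2 scale (edgeR adjusted p = 0.28), and 0.54 without the 3 libraries. EdgeR called none of the 8 members for a difference in effect between days, beside 0% of all genes for each agent, and counted 0 (D2C7-IT + αCD40), 2 (D2C7-IT, F3 and Thbs1) and 0 (αCD40) at an unadjusted p under 0.05, where 8.05%, 17.6% and 1.22% of all genes were counted. DESeq2 called 0 in each.

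**Figure D4:**
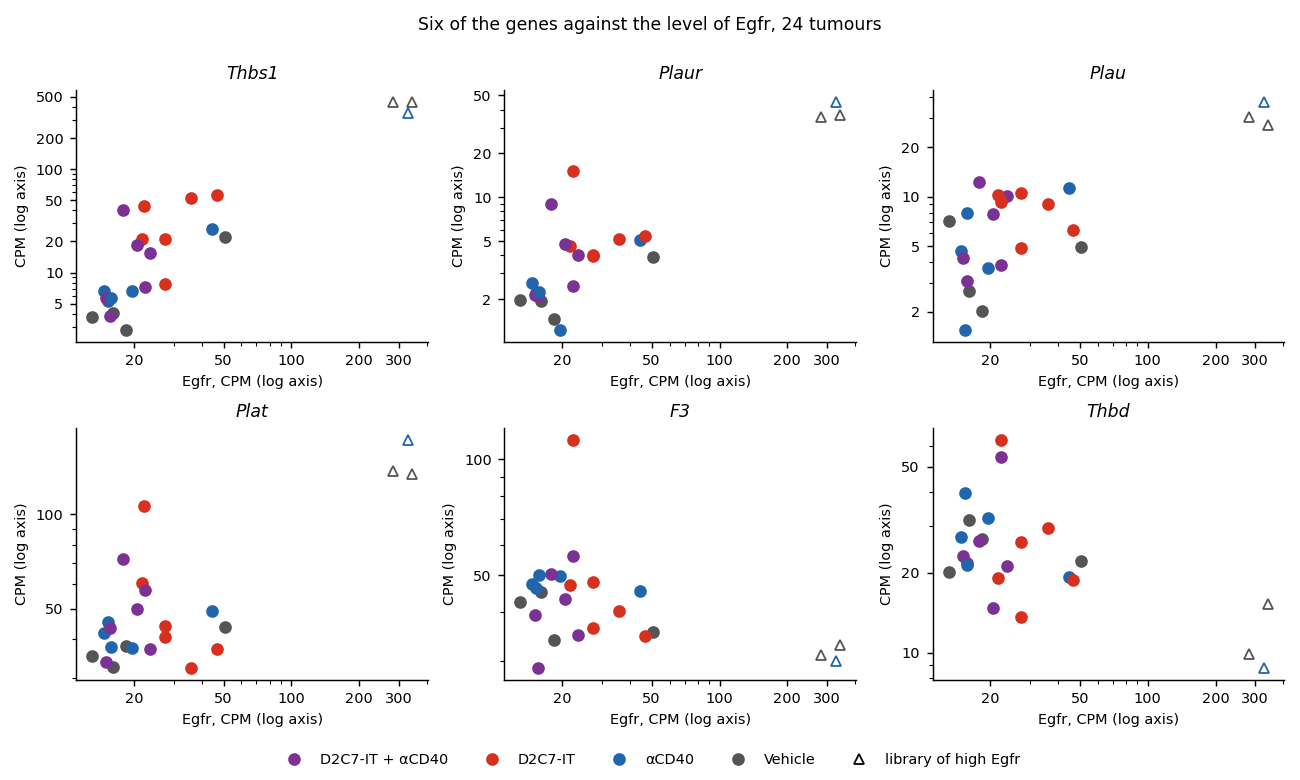
Level of Thbs1, Plaur, Plau, Plat, F3 and Thbd (CPM, log axis) against the level of Egfr (CPM, log axis) in 24 tumours, coloured by treatment, with open triangles for the 3 libraries of high Egfr at 283 to 343 CPM. Those libraries are highest for Thbs1 (351 to 451 CPM), Plaur (35.3 to 45.4 CPM), Plau (27.2 to 37.8 CPM) and Plat (135 to 174 CPM), and low for F3 (29.9 to 32.9 CPM) and Thbd (8.75 to 15.3 CPM).

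In the 3 libraries of high Egfr, the list of 8 monocyte and macrophage genes had means of 6.30 to 7.02 on the log2 scale (elsewhere 2.01 to 5.13), and the 7 neuron genes had means of 7.17 to 7.95 (elsewhere 8.5 to 9.66). Their part in the levels of Thbs1, Plaur, Plau and Plat was not tested. Over the 21 other libraries, the log2 CPM of Plaur and Thbs1 still correlated at r = 0.87, Plau and Plaur at 0.71 and Plat and Plaur at 0.69, and all 24 gave 0.95, 0.87 and 0.90. Vwf and Procr correlated at 0.78 in the 21 and 0.48 in all 24, F3 and Thbd at 0.59 and 0.68. The 24 libraries share groups, times and the 3 that stand apart, so these are descriptions.

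The genes most like Plaur were Tubb6 (r = 0.99 over 24 libraries and 0.96 over 21), Plekhg2 (0.97) and Fosl1 (0.97 over 24 and 0.94 over 21), a subunit of the AP-1 transcription factor. Those most like Thbs1 were Runx1 (0.98), S100a11 (0.97) and Tgfbi (0.97), those most like Plau were Ctsa (0.95), Il3ra (0.93) and Lyl1 (0.93), and those most like Plat were Iffo2 (0.96), Zfp469 (0.96) and Hmga1 (0.95). For F3 they were Gipr (0.86), Rgcc (0.82) and Chga (0.80), for Thbd Prg4 (0.90), Alx4 (0.88) and Slc26a7 (0.87), for Procr Mmp25 (0.92), Ly6i (0.90) and Gimap5 (0.89), and for Tfpi Slc26a2 (0.86), Uaca (0.85) and Rps29 (0.84). Over the 21 libraries Tgfbi (0.95) and S100a11 (0.94) were again among the 3 most like Thbs1, Lyl1 (0.90) for Plau, Iffo2 (0.88) for Plat, Gipr (0.85) for F3, Prg4 (0.88) for Thbd and Mmp25 (0.88) for Procr, while for Tfpi none of the 3 was.

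Promoter windows of 300 bases, 250 before and 50 after the start, were found in RefSeq (GRCm38.p6) for 4 of the 9 members, Plaur, F3, Procr and Tfpi, and not for Vwf, Thbd, Plat, Plau and Thbs1. The windows were searched for the AP-1 motif TGANTCA, a choice made after the levels and correlations had been seen, whose reverse complement is the same letters. The motif was in the windows of Plaur, F3 and Procr and in neither of 2 windows of Tfpi, and 7.81% of all 32851 windows held it. The 3 windows are shown on the plus strand, all 3 genes being on it, with the motif in capitals, since genes whose levels differed in pattern carry it: Plaur was highest in the libraries of high Egfr, and F3 was not.

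Plaur (chr7:24462233-24462532): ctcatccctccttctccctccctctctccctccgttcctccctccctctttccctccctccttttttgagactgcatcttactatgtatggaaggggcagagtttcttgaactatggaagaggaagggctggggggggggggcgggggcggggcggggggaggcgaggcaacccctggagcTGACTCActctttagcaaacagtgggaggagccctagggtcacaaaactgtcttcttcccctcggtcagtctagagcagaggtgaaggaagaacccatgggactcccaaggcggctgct

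F3 (chr3:121723287-121723586): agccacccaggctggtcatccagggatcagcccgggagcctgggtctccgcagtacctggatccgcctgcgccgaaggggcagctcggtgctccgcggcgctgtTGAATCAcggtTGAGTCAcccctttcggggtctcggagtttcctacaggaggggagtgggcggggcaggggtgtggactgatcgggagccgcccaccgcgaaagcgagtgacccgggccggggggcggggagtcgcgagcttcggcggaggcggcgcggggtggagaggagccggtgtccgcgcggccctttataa

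Procr (chr2:155750967-155751266): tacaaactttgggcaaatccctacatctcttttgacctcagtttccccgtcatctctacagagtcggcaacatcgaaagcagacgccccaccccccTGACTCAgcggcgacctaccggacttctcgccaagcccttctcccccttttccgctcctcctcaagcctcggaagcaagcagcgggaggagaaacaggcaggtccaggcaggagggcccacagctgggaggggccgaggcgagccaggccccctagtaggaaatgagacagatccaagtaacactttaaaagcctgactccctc

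The match in Plaur began 69 bases before the start, the 2 matches in F3 began 146 and 135 bases before it, and the match in Procr 154 bases before it. A match of letters is not a bound site, and none of these data measured binding.

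Per kilobase of exon, which allows genes to be compared in level, F3 was the highest member at day 0 in every group, at 13.6 CPM per kb in D2C7-IT + αCD40, 14.7 in D2C7-IT and 18.3 in αCD40, against 15.1 in Vehicle. Vwf per kilobase was 5.61 in D2C7-IT + αCD40, 7.75 in D2C7-IT and 6.91 in αCD40 at day 0, against 2.65 CPM per kb in Vehicle. Procr and Tfpi were low, with group means between 0.498 and 3.43 CPM per kb for Procr and between 0.93 and 1.61 CPM per kb for Tfpi over the 8 groups. Thbs1 had the widest range, with group means between 1.37 and 49.6 CPM per kb, the highest in Vehicle at day 3, which held 2 libraries of high Egfr.

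The wider pathway was covered by 66 further genes in 6 lists, of which 56 passed the filter on low counts: 13 of 19 of the coagulation cascade and its processing, 8 of 10 anticoagulants, 4 of 4 thrombin receptors, 13 of 14 of the plasminogen system, 11 of 12 partners of Vwf and Weibel-Palade bodies and 7 of 7 thrombospondins and their receptors. EdgeR called none of the 56 in any of the 19 comparisons. At day 3 against Vehicle it counted 15 of them at an unadjusted p under 0.05 in D2C7-IT + αCD40, 18 in D2C7-IT and 2 in αCD40, where 5352, 6287 (28.2%) and 425 (1.91%) of all 22280 genes were counted. DESeq2 called 7 in D2C7-IT + αCD40 (2 higher and 5 lower), where it called 7.72% of all genes (2.29% higher and 5.43% lower), 8 in D2C7-IT (3 higher and 5 lower), where it called 12.9% (4.04% higher and 8.86% lower), and 0 in αCD40, where it called 0.153%. The median log2 fold change of the 56 was 0.15 in D2C7-IT + αCD40, 0.02 in D2C7-IT and 0.03 in αCD40, where all genes had medians of 0.01, 0.02 and 0.02. Without the 3 libraries, where 59 list genes passed the filter, it was 0.68, 0.43 and 0.27, against 0.06, 0.06 and 0.03 over all genes. These medians too all rest on the single Vehicle tumour.

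Prothrombin and plasminogen, proteins the liver supplies to plasma, had low transcript levels, whose means at day 3 were higher in both groups given D2C7-IT than in Vehicle. F2, which encodes prothrombin, was at 0.341, 1.58 and 1 CPM at day 3 in D2C7-IT + αCD40, at 1.59, 1.75 and 0.403 CPM in D2C7-IT and at 0.0852, 0.118 and 0.0521 CPM in αCD40. Vehicle tumours had 0.0814, 0 and 0.103 CPM. Those levels came from 117 counts in D2C7-IT + αCD40, 130 in D2C7-IT, 9 in αCD40 and 7 in Vehicle. All 6 tumours that had received D2C7-IT were above the other 6, with log2 fold changes over Vehicle of 3.95 ± 0.97 for D2C7-IT + αCD40 (edgeR adjusted p = 0.11) and 4.29 ± 0.97 for D2C7-IT (edgeR adjusted p = 0.08), and 3.56 and 3.88 without the 3 libraries of high Egfr. DESeq2 called F2 in both. Plg, plasminogen, was at 0.0487, 1.28 and 0.566 CPM in D2C7-IT + αCD40, at 0.438, 0.908 and 0.201 CPM in D2C7-IT and at 0, 0.0888 and 0.0782 CPM in αCD40, against 0.0814, 0.0233 and 0 CPM in Vehicle, from 76 counts in D2C7-IT + αCD40, 53 in D2C7-IT, 6 in αCD40 and 4 in Vehicle. D2C7-IT did not overlap Vehicle and D2C7-IT + αCD40 did, and the log2 fold changes were 4.09 ± 1.07 (edgeR adjusted p = 0.11) for D2C7-IT + αCD40 and 3.77 ± 1.08 (edgeR adjusted p = 0.08) for D2C7-IT, and 2.94 and 2.60 without those libraries. Hpn, the protease hepsin, was also above Vehicle in D2C7-IT without overlap (1.19 ± 0.42, edgeR adjusted p = 0.09, and 1.12 without those libraries).

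The lower values in the tumours given D2C7-IT than in Vehicle at day 3 moved with the 3 libraries. F2r, the main thrombin receptor PAR1, was at 13.2, 10.9 and 14.8 CPM in D2C7-IT + αCD40, at 8.49, 5.41 and 7.23 CPM in D2C7-IT and at 107, 11.3 and 8.55 CPM in αCD40. Vehicle tumours had 6.95, 131 and 120 CPM. Its log2 fold change was -2.73 ± 0.93 for D2C7-IT + αCD40 (edgeR adjusted p = 0.11) and -3.61 ± 0.97 for D2C7-IT (edgeR adjusted p = 0.08), and 0.93 and 0.03 without those libraries. Thbs3, another thrombospondin, had -1.60 ± 0.43 and -1.57 ± 0.43 in the same 2 comparisons, and F2rl1, the receptor PAR2, -1.76 ± 0.64 in D2C7-IT. Lman1, a cargo receptor for factors V and VIII, had -0.98 ± 0.33 in D2C7-IT, and Ggcx, the vitamin K-dependent carboxylase, -0.63 ± 0.18 in D2C7-IT + αCD40, where Lrp1, the clearance receptor for activator complexes, had -0.79 ± 0.27 (edgeR adjusted p 0.088 to 0.11 for these 4 genes). Without the 3 libraries Thbs3 was at -0.28 and -0.27, F2rl1 at 0.31, Lman1 at 0.0076, Ggcx at -0.18 and Lrp1 at 0.10.

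F13a1, the transglutaminase that crosslinks fibrin and is made by macrophages, was at 15, 21.7 and 34.3 CPM in D2C7-IT at day 0, above all Vehicle tumours at 8.33, 6.13 and 6.97 CPM (1.73 ± 0.54, a description). It was lower in D2C7-IT at day 3, at 4.54, 8.37 and 4.73 CPM, without overlap (-2.01 ± 0.54, edgeR adjusted p = 0.89).

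**Figure D5:**
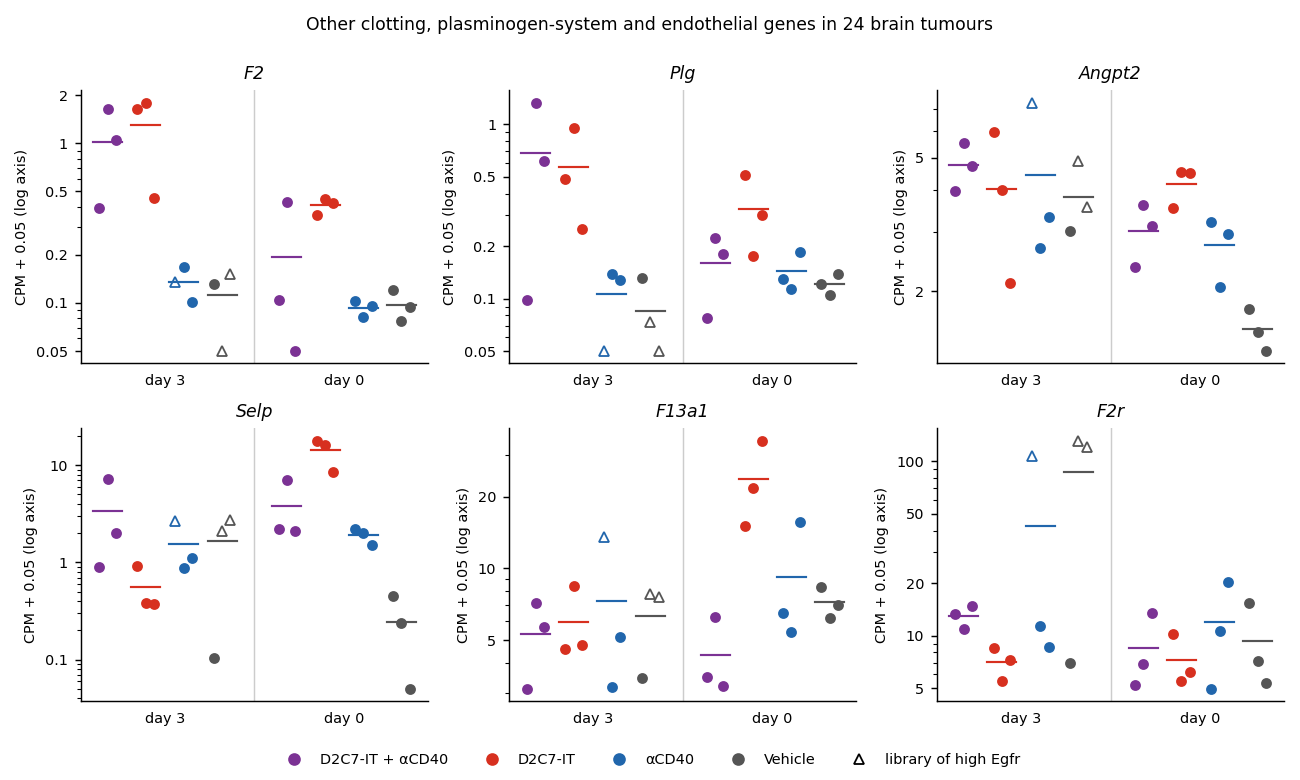
Level of F2, Plg, Angpt2, Selp, F13a1 and F2r in each tumour (CPM + 0.05, log axis), day 3 left and day 0 right in each panel, treated groups left of Vehicle; bars are means of 3 tumours and open triangles the 3 libraries of high Egfr. At day 3 F2 in the 6 tumours given D2C7-IT lies between 0.341 and 1.75 CPM, above every αCD40 and Vehicle tumour, and at day 0 Selp is highest in D2C7-IT at 8.44 to 17.9 CPM.

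Between days, the Vehicle tumours had day 3 over day 0 log2 fold changes of 3.10 ± 0.90 for Anxa2 and 2.09 ± 0.69 for S100a10, the pair that binds plasminogen and tPA at the cell surface, 3.22 ± 0.95 for F2r and 1.34 ± 0.38 for Angpt2, and -1.10 ± 0.36 for F2rl3, the receptor PAR4 (edgeR adjusted p = 0.11 each). Angpt2 and F2rl3 did not overlap between days, and Anxa2, S100a10 and F2r did. Without the 3 libraries Anxa2 was at -0.43, S100a10 at -0.23, F2r at -0.43, Angpt2 at 0.98 and F2rl3 at -1.28. In D2C7-IT + αCD40 between days the smallest p belonged to Serpinf2, which encodes the plasmin inhibitor α2-antiplasmin, at 2.52 ± 0.71 without overlap (edgeR adjusted p = 0.48). In αCD40 they belonged to Serpina10, an inhibitor of factor Xa, at 2.23 ± 0.65 (edgeR adjusted p = 0.39) and Vkorc1, the vitamin K reductase, at 0.52 ± 0.18 (edgeR adjusted p = 0.42), both without overlap, and at 2.38 and 0.48 without the 3 libraries.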

How the data were processed

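RNA from 24 flash-frozen tumours was sequenced after selection with oligo(dT), with a kit that does not mark strand, per the labels' protocols. The authors deposited whole-number counts per Ensembl gene in 6 tables. The reads had been trimmed with Trimmomatic 0.36, aligned to GRCm38 with STAR 2.5.2b and counted with featureCounts of Subread 1.5.2, per the submitters' processing notes, with an annotation and strand setting not given in the sources used. The 6 tables hold 36 columns, and 12 of them repeat another with no differing value. Symbols and positions came from a GENCODE annotation of GRCm38 and were found for 48970 of 49315 genes. Counting error follows from 24697576 to 48119840 counts a library.

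EdgeR 4.0.16 in R 4.3.3 fitted quasi-likelihood models to all 24 libraries with 1 mean per group (TMM factors, low-count filter, robust dispersion), leaving 16 residual degrees of freedom for 22280 genes, with a common coefficient of variation between tumours of 0.412. The Benjamini-Hochberg adjusted p over all genes had to be under 0.05. Per-library log2 CPM used a prior count of 2. The standard error is the log2 fold change divided by the square root of F. The steps were tested on simulated counts first. DESeq2 1.42.0, other size factors, no filter, fits of only the groups compared, a replicate block and leaving out libraries were alternatives.

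The members and lists were chosen with earlier results of these data known. Named beyond the members are, per list and comparison, genes called and up to 2 of smallest p, and the 3 genes of highest correlation with each member among those with a mean of at least 1 CPM. The AP-1 motif was chosen after the levels were seen. 1 listed gene is counted in its list and is otherwise not reported here.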

Additional observations from a re-analysis of the deposited data

How the results depend on the processing

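Other size factors (RLE), no low-count filter and fits of only the groups compared left every one of the 19 counts of called members at its value, and none of the 80 fold changes recomputed turned round under them. The fit of only the groups compared called Selp between days in D2C7-IT (-4.79, edgeR adjusted p = 0.038), which edgeR's fit of all 24 libraries did not. The share of all genes called in the smaller fit is not given here, so nothing is read from that call. Calls of members by DESeq2 against Vehicle at day 0 are not given, since those comparisons chose the genes. Against Vehicle at day 3, DESeq2 called 1 member (Vwf) in D2C7-IT + αCD40 and 1 member (F3) in D2C7-IT, where edgeR called 0. Between days in Vehicle, DESeq2 called 2 members (Plau and Plaur), where edgeR called 0. Over all genes it also called more: 138 against 18 by edgeR in D2C7-IT at day 0, 1720 against 9 in D2C7-IT + αCD40, 2874 against 0 in D2C7-IT at day 3, 853 against 31 in D2C7-IT against αCD40 at day 3, 122 against 13 between days in αCD40 and 2271 against 0 between days in Vehicle. The cause was not tested.

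Leaving out 1 tumour at a time, the members called against Vehicle at day 3 were 0 to 2 in D2C7-IT + αCD40, 0 to 3 in D2C7-IT and 0 to 2 in αCD40. Between days in Vehicle they were 0 to 6. For the difference in the D2C7-IT effect between days they were 0 to 1. That 1 was Thbs1, without tumour 1 of Vehicle at day 3, beside 16.1% of all genes. In the other comparisons they were 0, leaving aside those with Vehicle at day 0, which chose the genes. Log2 fold changes that turned round were those of Vwf between days in D2C7-IT + αCD40 (-0.013 to 0.47) and in its effect between days (-0.44 to 0.041) and of Procr in αCD40 at day 3 (-0.18 to 1.60).

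With the 3 libraries of high Egfr left out, against Vehicle at day 3, D2C7-IT + αCD40 had log2 fold changes of 0.79 for Plat, 0.21 for Plau, 1.48 for Plaur, 2.59 for Thbs1, 0.93 for F2r and 0.10 for Lrp1. D2C7-IT had 1.01, 0.52, 2.01 and 2.70 for those 4 members, 0.034 for F2r, 0.31 for F2rl1 and 0.0076 for Lman1. Between days in Vehicle, Plat was at -0.12, Plaur at -0.32, Thbs1 at -1.40, F2r at -0.43, Anxa2 at -0.43 and S100a10 at -0.23. The effects between days were 0.22 for Vwf in D2C7-IT + αCD40 and 0.54 for Thbs1 in D2C7-IT. All of these had the other sign with the 3 libraries in the fit.

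Replicate numbers did not pair tumours: deviations of same-numbered tumours correlated at -0.913 to 0.463, with no comparison above 0.1 in all 3 pairs. With a replicate block no count of called members moved, and Vwf in D2C7-IT + αCD40 at day 3 was at 0.88 (edgeR adjusted p = 0.14).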
